A study of Mus musculus with 6 samples.

Results

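Open chromatin was described around 10 immediate early transcription factor genes in the S1 segment of the mouse kidney proximal tubule, the first stretch of tubule after the glomerulus. The genes were Fos, Fosb, Fosl1, Fosl2, Jun, Junb, Jund, Atf3, Egr1 and Nr4a1. A region belonged to a gene where its strongest summit lay in the gene body or within 50 kb of it (GRCm38, GENCODE release M21), which gave 161 of the 99359 merged regions of the 6 peak lists. Of these, 13 were promoter regions of the members, with the summit within 1 kb of an annotated start. Another 32 lay within 1 kb of a start of some other protein-coding gene, and 116 were distal to both. At the edge of the window, the nearest region inside was 49953 bp from the body of Fosb and the nearest outside was 50055 bp from the body of Atf3.

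Immediate early genes are switched on within minutes of a stimulus without new protein synthesis. FOS proteins pair with JUN proteins to form AP-1, a dimer that binds a short palindromic site, while EGR1 and NR4A1 bind sites of their own. In many cell types serum response factor and its ETS partners drive the first wave through CArG boxes in the promoters of Fos, Fosb, Egr1 and related genes, and CREB acts through cyclic AMP response elements (CRE). In the kidney these factors are known as early responders to injury and growth signals.

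The assay was ATAC-seq, which marks accessible DNA by letting a transposase insert adapters there. All libraries came from hand-dissected S1 proximal tubules, 3 tubules per library, of wild-type male C57BL/6 mice from Taconic that were 7 weeks old. The 2 groups were Sham, taken 24 h after a sham operation (3 libraries), and UNx, taken 24 h after surgical removal of 1 kidney (unilateral nephrectomy, 3 libraries), and the comparison asks which chromatin regions differ after the loss of 1 kidney. Nothing in the labels ties libraries to separate mice, so p-values measure the spread between these libraries, which may be partly technical.

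The lists held 77355 to 100999 peaks per library, and sequencing depth is unknown because the lists hold no read counts. Each region was given a percentile rank in each library, from near 100 for the strongest peak to 0 for a region not among the 77355 strongest peaks. A higher rank means a stronger peak relative to the rest of its own list, and no absolute amount. Strength was the −log10 q of the peak, a measure of significance, and the lists differed in it. The median −log10 q ran from 12.07 in Sham 2 to 26.47 in UNx 3. The last ranked peak stood at 1.3025 in Sham 2 and at 7.8312 in UNx 3, with the other lists between. A rank of 0 therefore does not mark the same strength in every list. In these bulk preparations fewer cells of a type and less open chromatin per cell cannot be told apart. All 8 S1 markers had a promoter region, with summed ranks of 654 to 687 in Sham and 670 to 688 in UNx libraries. Of 6 markers of the loop, distal tubule and collecting duct, 4 had one and Slc12a3 and Aqp2 had none, and the sums were 268 to 291 in Sham and 237 to 263 in UNx libraries. The sums over 4 endothelial markers were 4.92 to 28.2 and 0 to 4.39, over 3 podocyte markers 63.6 to 97.4 and 56.9 to 82.4, and over 4 injury markers 55.2 to 77.5 and 65.5 to 97.1. None of 3 stromal and 3 immune markers had a summit within 1 kb of a start. The part of these cell types in the results was not tested.

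The sequences that follow are of promoters and of regions inside or near Jun and Fosl2 described in the results. Capitals mark matches, on either strand, to 6 searched strings. These were the AP-1 site TGANTCA, the CRE TGACGTCA, the CRE-like string TGANNTCA (which includes the CRE), the EGR site GCGNGGGCG, the NR4A site AAAGGTCA and the CArG box. First come 201 bases centred on the strongest summit, on the forward strand of GRCm38, for the promoters of Fos (chr12:85473446-85473646, summit 344 bp upstream of the start), of Fosb (chr7:19310282-19310482, 331 bp upstream, a gene on the reverse strand) and of the upstream start of Nr4a1 (chr15:101254013-101254213, 156 bp upstream). The Fos window holds the CArG box, Fosb has a CArG box and an EGR string, and the Nr4a1 window has no match.
Fos promoter summit: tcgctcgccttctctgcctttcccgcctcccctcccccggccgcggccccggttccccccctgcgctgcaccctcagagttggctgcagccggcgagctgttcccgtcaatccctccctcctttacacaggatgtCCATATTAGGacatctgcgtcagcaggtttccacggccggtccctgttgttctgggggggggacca
Fosb promoter summit: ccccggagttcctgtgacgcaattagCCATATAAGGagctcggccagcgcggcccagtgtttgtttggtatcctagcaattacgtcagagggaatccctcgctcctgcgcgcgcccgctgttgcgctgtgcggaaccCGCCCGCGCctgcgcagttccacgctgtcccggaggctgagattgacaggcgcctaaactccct
Nr4a1 upstream promoter summit: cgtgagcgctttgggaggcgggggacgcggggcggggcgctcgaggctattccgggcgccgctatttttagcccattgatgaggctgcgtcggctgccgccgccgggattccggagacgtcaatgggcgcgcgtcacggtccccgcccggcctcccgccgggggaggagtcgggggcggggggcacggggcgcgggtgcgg

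Next are the 250 bases upstream of the start in the transcribed direction, from the RefSeq promoter table (GRCm38.p6), for Jun (chr4:95052223-95052472, reverse strand), Atf3 (chr1:191183334-191183583, reverse strand) and the downstream start of Nr4a1 (chr15:101266596-101266845, forward strand). With the upstream Nr4a1 start above, Jun and Atf3 are the 3 promoters at an unadjusted p under 0.05, and the downstream start is the second of Nr4a1. Jun has the CRE-like string with its first base 45 bp upstream of the start, Nr4a1 has an EGR string with its first base 60 bp upstream, and Atf3 has none of the strings. Variants that differ from a string by a base were not searched, such as ttacgtca near the end of the Atf3 sequence.
Jun promoter: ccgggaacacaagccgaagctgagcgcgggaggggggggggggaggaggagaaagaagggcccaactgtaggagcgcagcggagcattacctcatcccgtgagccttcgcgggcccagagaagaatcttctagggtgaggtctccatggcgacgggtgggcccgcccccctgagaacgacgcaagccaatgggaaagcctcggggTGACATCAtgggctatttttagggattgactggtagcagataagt
Atf3 promoter: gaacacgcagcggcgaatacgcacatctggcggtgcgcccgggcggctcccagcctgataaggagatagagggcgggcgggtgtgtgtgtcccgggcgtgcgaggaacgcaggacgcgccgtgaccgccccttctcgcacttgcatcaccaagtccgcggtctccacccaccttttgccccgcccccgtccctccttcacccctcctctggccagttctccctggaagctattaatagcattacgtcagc
Nr4a1 downstream promoter: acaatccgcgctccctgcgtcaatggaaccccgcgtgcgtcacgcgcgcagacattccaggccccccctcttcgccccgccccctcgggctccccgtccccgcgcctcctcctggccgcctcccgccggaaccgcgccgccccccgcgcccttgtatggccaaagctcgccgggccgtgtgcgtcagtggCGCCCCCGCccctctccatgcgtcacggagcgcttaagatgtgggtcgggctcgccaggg

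The last windows are 201 bases around the summit on the forward strand. They are the region over the Jun coding sequence, which had the smallest p of the Jun locus (chr4:95050634-95050834), a region 60327 bp downstream of the Fosl2 start (chr5:32196028-32196228), which holds an AP-1 and a CRE-like string, and 2 regions upstream of Jun at 10888 bp (chr4:95063010-95063210) and 16522 bp (chr4:95068644-95068844), the second with an NR4A site. The called region near Fosl1 and the region in the Jun UTR lie in UTRs and are described by position only.
Jun coding sequence: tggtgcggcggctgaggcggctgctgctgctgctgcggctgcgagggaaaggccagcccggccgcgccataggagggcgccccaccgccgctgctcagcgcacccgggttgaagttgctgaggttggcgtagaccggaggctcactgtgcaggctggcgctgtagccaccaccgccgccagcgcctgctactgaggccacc
Fosl2 +60327: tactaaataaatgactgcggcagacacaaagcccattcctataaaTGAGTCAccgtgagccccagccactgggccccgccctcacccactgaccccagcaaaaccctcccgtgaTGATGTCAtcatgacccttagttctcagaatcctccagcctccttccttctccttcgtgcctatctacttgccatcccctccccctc
Jun -10888: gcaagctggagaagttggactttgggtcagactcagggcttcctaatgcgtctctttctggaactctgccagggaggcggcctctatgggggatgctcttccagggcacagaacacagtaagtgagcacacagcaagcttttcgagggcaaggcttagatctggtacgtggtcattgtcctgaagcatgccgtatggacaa
Jun -16522: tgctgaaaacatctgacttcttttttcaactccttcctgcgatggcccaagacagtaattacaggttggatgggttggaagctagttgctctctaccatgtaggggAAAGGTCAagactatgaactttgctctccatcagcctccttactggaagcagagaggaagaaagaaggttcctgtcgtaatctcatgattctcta

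Across the 10 loci, 1 region was called after UNx. Of the 161 regions, 105 were in all 6 lists, 24 were in 1 list, and 131 were in at least 3 lists and could be tested. limma called 1 of the 131 (0.763%), a rise downstream of Fosl1, against 0.788% of all 74781 tested regions for any call and 0.435% for rises alone. At an unadjusted p under 0.05 there were 28 member regions (21.4%; 11 higher and 17 lower), beside 18.6% of all tested regions. The UNx ranks lay wholly above or below the Sham ranks in 24 member regions (18.3%), against 23.7% of all tested regions. The median difference was −0.45 percentile points, 61 regions were higher and 70 lower, and the median over all tested regions was −0.01. These shares lie close to the background, and no result about the loci as a whole is read from them.

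**Figure D1:**
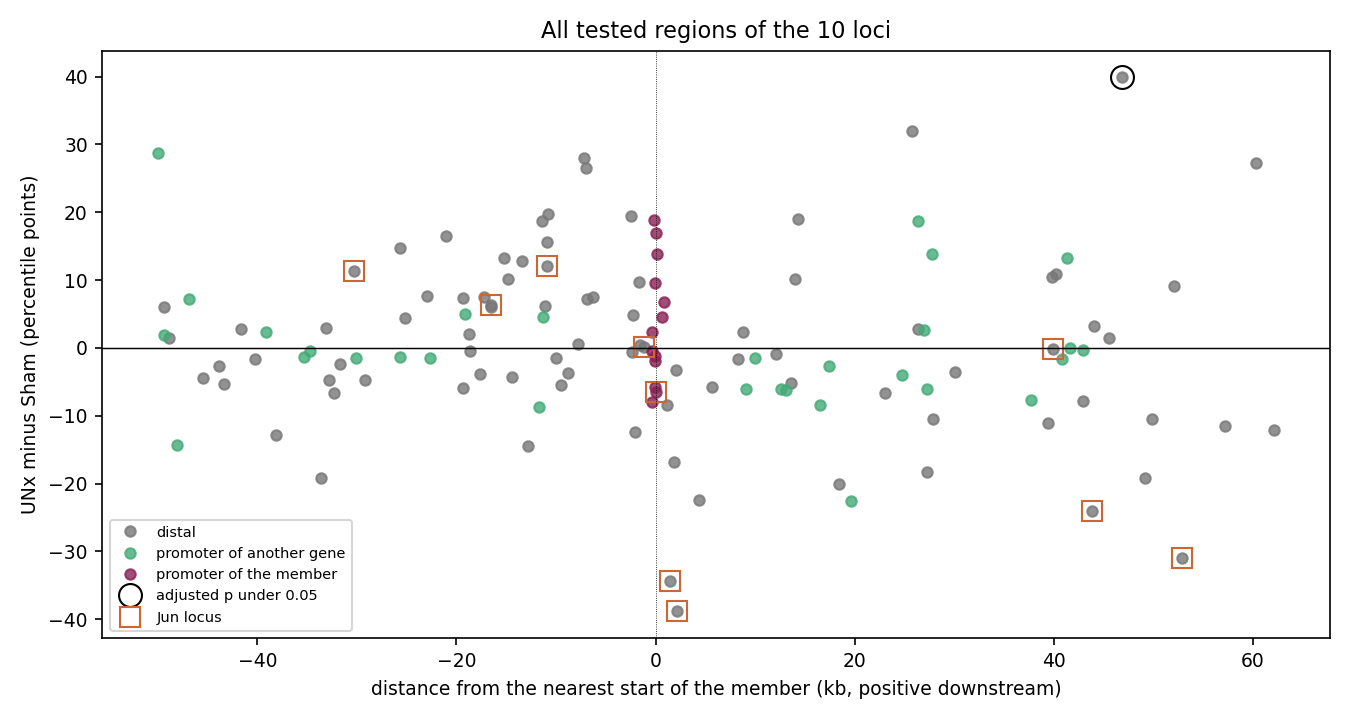
Difference in percentile rank (UNx minus Sham, percentile points) of the 131 tested regions against the distance of the strongest summit from the nearest start of the member (kb), with colours for promoters of the members, promoters of other genes and distal regions. The 1 ringed region, downstream of Fosl1, was called, and the 10 boxed regions of the Jun locus are higher upstream of the start (0.15 to 12.13 points) and lower from the start on (−0.16 to −38.82). The 2 of them nearest to 0 changed sign with GC-corrected ranks.

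The promoters of 9 of the 10 genes were among the 77355 strongest peaks in every library, and that of Fosl1 was in every deposited list. Of the 13 promoter regions, 12 were in all 6 lists, 0 were called (0.428% of all 14008 tested promoter regions were), 3 had an unadjusted p under 0.05 (14.2% of promoter regions) and 2 had groups that did not overlap (20.8%). Those 3 belonged to Atf3 and the upstream start of Nr4a1, which were higher after UNx, and to Jun, which was lower.

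Fos encodes the first FOS subunit of AP-1 to appear after a stimulus. Its promoter region (chromosome 12, 85473239 to 85474389) ranked at 85.6, 83.2 and 88.9 after the sham operation and at 84.7, 82.4 and 89.2 after UNx. The groups overlapped fully, with a difference of −0.45 percentile points (SE 2.88). Fosb encodes a FOS protein whose truncated form lasts longer than FOS. Its promoter (chromosome 7, 19309945 to 19310606) ranked at 78.5, 73.4 and 74.8 in Sham and at 67.1, 55.7 and 79.8 after UNx. UNx 3 lay above every Sham library and the other UNx libraries below them (difference −8.04, SE 5.84; limma adjusted p = 0.485). A second Fosb region, in an intron 888 bp downstream of an inner start, stood at 68.0 ± 5.14 and 74.8 ± 10.1 (SD, n = 3 each).

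Fosl1, which encodes FRA1, was the exception. Its promoter region (chromosome 19, 5447439 to 5448008) ranked at 2.29, 16.3 and 0 in Sham and at 0, 11.9 and 57.3 after UNx, so it was in the weaker part of every list but that of UNx 3. Among all deposited peaks it was in all 6 lists. Fosl2, which encodes FRA2, had a strong promoter region (chromosome 5, 32134960 to 32136197) at 86.9, 92.5 and 95.1 in Sham and 88.7, 88.5 and 91.4 after UNx. The difference of −1.94 (SE 2.31) was smaller than the spread within Sham. A weaker Fosl2 region 623 bp downstream of the start ranked at 45.3 ± 12.2 and 49.8 ± 15.9 (SD, n = 3 each).

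The 3 JUN genes differed in promoter rank. Jun, the main activating JUN subunit, had a promoter region (chromosome 4, 95051464 to 95053031) at 93.1, 93.7 and 90.9 in Sham and 90.8, 80.0 and 87.4 after UNx. The groups did not overlap (difference −6.50, SE 2.62; limma unadjusted p = 0.0229, adjusted p = 0.194, alternatives from 0.177 to 0.525). The difference was −7.24 with GC-corrected ranks and −16.46 with ranking by fold enrichment (limma unadjusted p = 0.105 and 0.148). Junb encodes a subunit that often restrains JUN. Its promoter region (chromosome 8, 84978558 to 84978980) ranked at 68.2, 72.2 and 64.6 and at 64.4, 58.2 and 65.0, with overlapping groups (difference −5.83, SE 5.79; limma adjusted p = 0.629). Jund is the member expressed at a steady level in resting cells. Its promoter (chromosome 8, 70698294 to 70699665) was the strongest of the 13, at 96.8, 96.0 and 93.4 in Sham and 92.5, 94.0 and 95.9 after UNx. The summit lay 77 bp upstream of the GENCODE start, and RefSeq places the start further upstream, at 70697739.

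Atf3 encodes a stress-induced bZIP repressor that can pair with JUN proteins. Its promoter region (chromosome 1, 191182383 to 191183945) covers the inner of 2 annotated starts and ranked at 66.6, 70.8 and 65.0 in Sham and at 77.5, 80.0 and 86.3 after UNx. Every UNx library was above every Sham library, by 13.8 percentile points on average (SE 4.66; limma unadjusted p = 0.00831, adjusted p = 0.131, alternatives from 0.124 to 0.829). No ranked peak had its summit within 1 kb of the far upstream start of Atf3.

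Egr1 encodes a zinc finger factor that binds GC-rich sites. Its promoter region ranked at 88.4, 93.1 and 88.9 in Sham and at 93.3, 90.9 and 93.3 after UNx, with overlapping groups (difference 2.36, SE 2.04). Nr4a1 encodes NUR77, an orphan nuclear receptor. At its upstream start the region (chromosome 15, 101252934 to 101254520) ranked at 45.4, 61.2 and 53.6 in Sham and at 78.0, 55.7 and 83.2 after UNx. UNx 1 and UNx 3 were above all Sham libraries and UNx 2 lay among them (difference 18.9, SE 7.45; limma unadjusted p = 0.0209, adjusted p = 0.186, alternatives from 0.05 to 0.647). The region at the downstream start ranked at 41.6, 48.0 and 62.6 and at 42.9, 52.9 and 85.2, where UNx 3 alone stood above the Sham range (limma adjusted p = 0.633). In both Nr4a1 regions, the Fosb region upstream of the start and the Fosl1 promoter, UNx 3 was the highest of the UNx libraries. The same held at the promoters of Fos, Junb, Jund and Atf3 and the stronger promoter region of Fosl2. It did not hold at Jun, Egr1, the inner Fosb start and the weaker Fosl2 region. UNx 3 was also the list with the highest median −log10 q (26.47, beside 14.54 in UNx 1 and 20.29 in UNx 2). Whether this difference between the lists bears on the pattern was not tested.

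**Figure D2:**
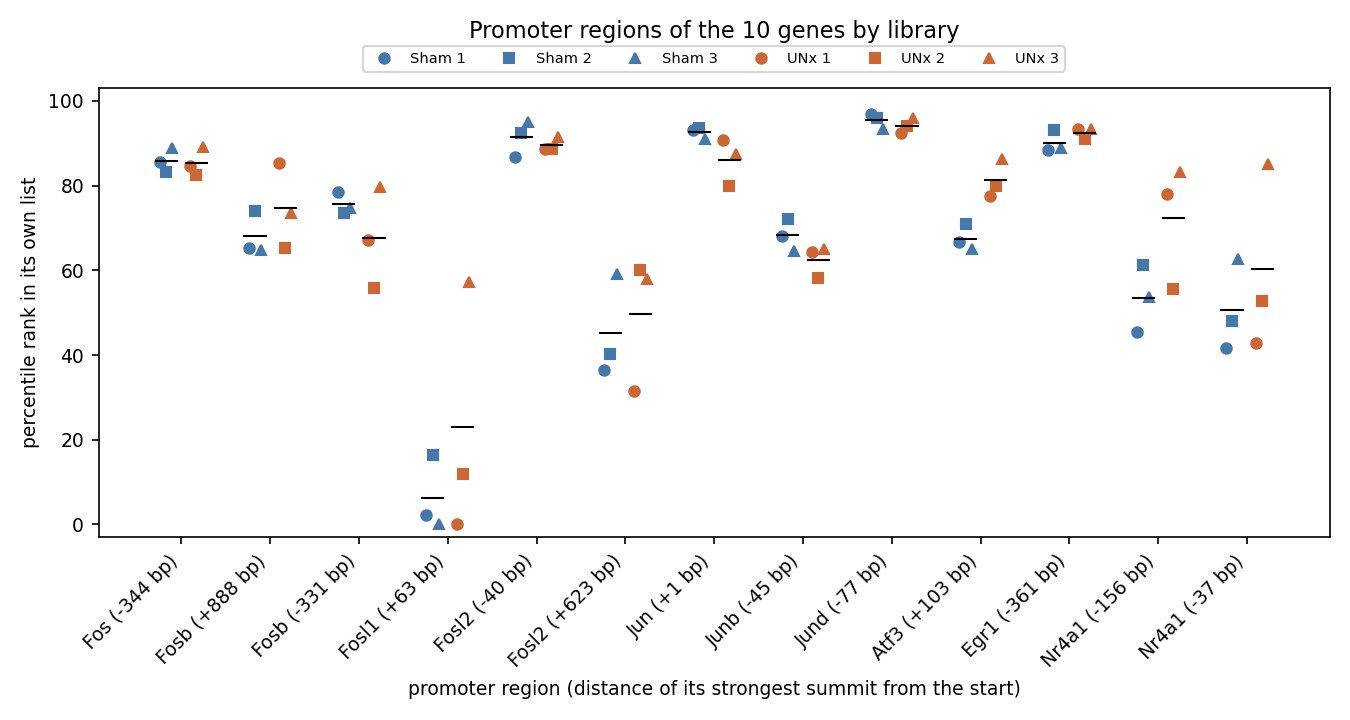
Percentile rank (0 to 100) of the 13 promoter regions of the members in each of the 3 Sham (blue) and 3 UNx (orange) libraries, with black lines for group means and marker shapes for libraries 1 to 3. Atf3 and Jun are the 2 regions whose groups do not overlap, Atf3 higher and Jun lower after UNx.

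Jun was the locus with the most regions at low p. Of its 10 regions, all tested, 7 had an unadjusted p under 0.05 (18.6% over all tested regions) and 6 had groups that did not overlap (23.7% over all), 5 of them lower and 1 higher after UNx, while 0 passed the adjusted threshold. This locus was singled out after its values were seen, and the regions named here beyond the rule were chosen in the same way. Regions of 1 locus can move together and are not independent observations.

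Inside the gene, the region over the Jun coding sequence (chromosome 4, 95050550 to 95050989) ranked at 68.2, 68.6 and 79.2 in Sham and at 45.04, 46.1 and 21.9 after UNx. It had the smallest p of the locus (difference −34.31, SE 8.09; limma adjusted p = 0.0524, alternatives from 0.0228 to 0.454). The region over the 3′ part of the transcript, in the UTR (95049972 to 95050187), ranked at 56.4, 53.7 and 54.6 in Sham and at 2.04, 25.9 and 20.3 after UNx (difference −38.82, SE 10.2; limma adjusted p = 0.0693). In both regions the UNx libraries were all below the Sham libraries, and the promoter just upstream was lower by a smaller amount, as given above.

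Upstream of Jun, in introns of the antisense transcript Junos, the order was the opposite. At 10888 bp upstream (95062600 to 95063533) the ranks were 78.9, 82.3 and 70.8 in Sham and 85.6, 90.3 and 92.4 after UNx, without overlap (difference 12.13, SE 3.50; limma unadjusted p = 0.00274, adjusted p = 0.0909). At 30302 bp upstream the mean rank was 70.0 ± 8.07 in Sham and 81.2 ± 1.99 after UNx (SD, n = 3 each; limma unadjusted p = 0.0305, adjusted p = 0.217). The strongest distal region, 16522 bp upstream, stood at 80.5 ± 10.1 and 87.0 ± 1.26, and the one nearest the promoter, 1138 bp upstream, at 80.8 ± 6.51 and 80.9 ± 11.1, both with overlapping groups.

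Downstream of Jun, in introns of the antisense transcript Gm12694, a region 43861 bp from the start ranked at 51.8, 51.8 and 66.1 in Sham and 18.7, 49.8 and 28.8 after UNx (limma unadjusted p = 0.0229, adjusted p = 0.194). Further out, at 52877 bp (94999228 to 94999464), a region ranked at 51.8, 22.1 and 18.8 in Sham libraries and was not among the ranked peaks of any UNx library (limma unadjusted p = 0.00788, adjusted p = 0.129). It was the only one of the 161 member regions found in every list of one operation and absent from the other. Of all 99359 merged regions, 928 were Sham-only and 1036 UNx-only in this way. Among all deposited peaks it was also in 1 UNx list. With ranks corrected for GC content the differences over the coding sequence, the UTR and the region 10888 bp upstream were −34.06, −39.92 and 12.87, close to the uncorrected values. Their limma adjusted p were then 0.141, 0.0895 and 0.119. With ranking by fold enrichment the differences were −11.88 over the coding sequence and 6.854 at 10888 bp upstream (limma adjusted p = 0.454 and 0.356). The UTR region could not be followed there.

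**Figure D3:**
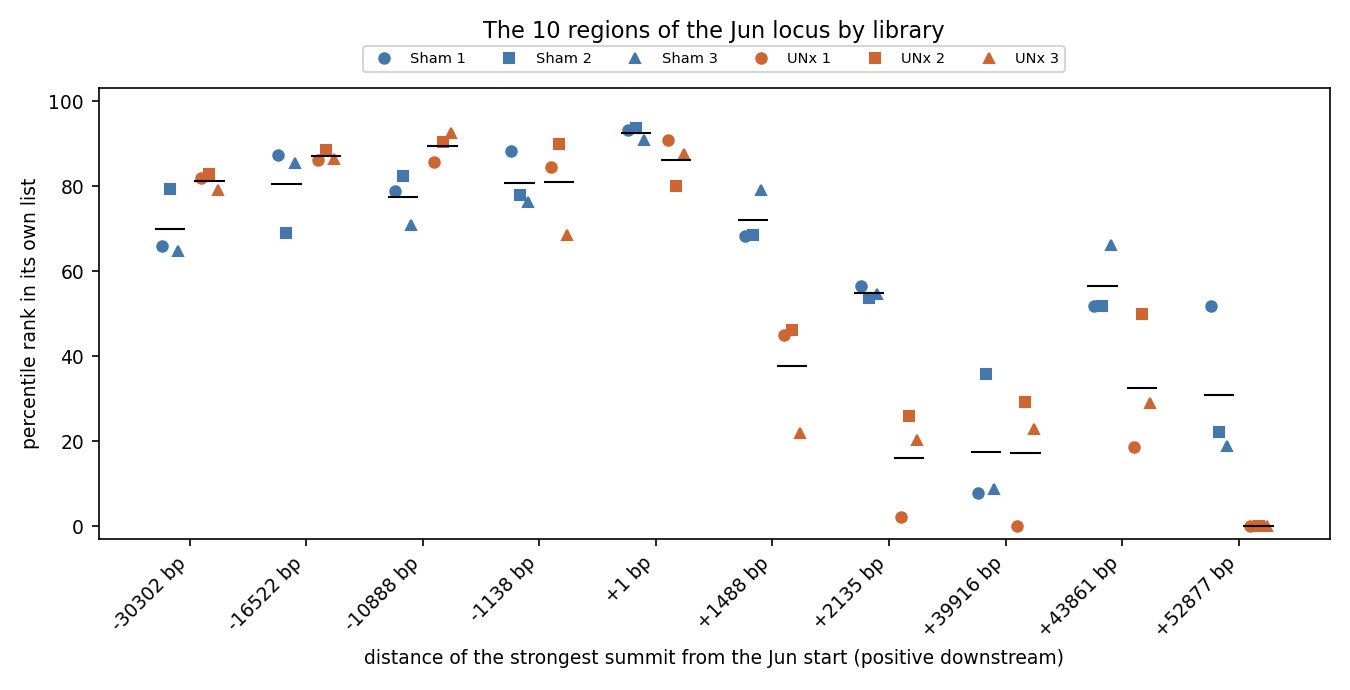
Percentile rank (0 to 100) of the 10 regions of the Jun locus in each library, ordered by the distance of the strongest summit from the Jun start (bp, positive downstream), with Sham in blue, UNx in orange and black lines for group means. The UNx libraries lie above Sham at 10888 bp upstream and below Sham at the promoter and at 1488, 2135, 43861 and 52877 bp downstream.

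Distal regions of the FOS genes included the only call. The called region lies 46854 bp downstream of the Fosl1 start (chromosome 19, 5494213 to 5494659), in the UTR of Cfl1, the gene of the actin-severing protein cofilin, and in an intron of Snx32. It ranked at 33.1, 43.5 and 20.8 in Sham and at 78.2, 65.7 and 73.2 after UNx. All UNx libraries were above all Sham libraries, by 39.9 percentile points (SE 8.12; limma adjusted p = 0.0365, alternatives from 0.0105 to 0.251). The call was lost under 7 of the other settings and on leaving out any library but Sham 2. Its nearest coding start was that of Cfl1, at 3836 bp, so a link to Fosl1 rests on distance alone. The strongest distal region of Fosl1, 2419 bp upstream of its weak promoter, ranked at 94.6 ± 0.782 and 94.0 ± 4.66 (SD, n = 3 each).

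Around Fos, the strongest distal region lay 12117 bp downstream of the start at 93.5, 98.5 and 98.5 in Sham and 96.2, 92.3 and 99.1 after UNx, above the promoter itself. The distal region of smallest p, 18390 bp downstream, ranked at 34.6, 19.9 and 44.3 and at 13.0, 15.4 and 10.3, without overlap (limma unadjusted p = 0.0808, adjusted p = 0.333). The Fosb region 10054 bp upstream of the start was among the strongest of all members, at 98.5 ± 0.604 and 97.1 ± 0.365 (SD, n = 3 each), and its groups did not overlap although they differed by 1.48 points. A Fosb region 2063 bp upstream averaged 82.7 ± 8.76 and 70.3 ± 7.81 (limma unadjusted p = 0.0274, adjusted p = 0.208). The Fosl2 region 60327 bp downstream, with the AP-1 string printed above, ranked at 0, 1.83 and 0 in Sham and at 24.1, 14.0 and 45.3 after UNx, without overlap (limma unadjusted p = 0.0126, adjusted p = 0.152). Among all deposited peaks it was in all 6 lists.

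Near Junb, a region 10793 bp upstream of the start and 1092 bp from the start of Hook2 (chromosome 8, 84989267 to 84989747) ranked at 63.5, 51.3 and 60.6 in Sham and at 81.4, 76.4 and 76.7 after UNx. The groups did not overlap (difference 19.7, SE 5.56; limma unadjusted p = 0.00231, adjusted p = 0.0865). The strongest distal Junb region, 1615 bp upstream, stood at 93.1 ± 1.92 and 93.4 ± 1.16 (SD, n = 3 each), well above the Junb promoter. Near Jund, a region 6982 bp upstream (chromosome 8, 70691557 to 70692205) ranked at 45.9, 23.6 and 49.8 and at 61.8, 59.4 and 77.7, again without overlap (difference 26.5, SE 8.61; limma unadjusted p = 0.00642, adjusted p = 0.12). The strongest distal Jund region, 18641 bp upstream, stood at 95.8 ± 1.33 and 95.3 ± 0.791.

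The Atf3 locus had 1 distal region that was both the strongest and the one of smallest p, 57205 bp from the inner start and beyond the 3′ end. It averaged 79.6 ± 2.47 in Sham and 68.1 ± 10.6 after UNx (SD, n = 3 each; limma unadjusted p = 0.0465, adjusted p = 0.261), the opposite direction to the promoter. All 8 Egr1 regions were in all 6 lists. The strongest distal one, 26358 bp downstream, stood at 88.5 ± 1.03 and 91.3 ± 3.73, and one 27852 bp downstream ranked at 83.8, 82.4 and 77.8 and at 73.9, 75.9 and 63.0, without overlap (limma unadjusted p = 0.0371, adjusted p = 0.237). At Nr4a1 the strongest distal region, 7761 bp upstream of the upstream start, stood at 97.0 ± 1.09 and 97.5 ± 1.09 (SD, n = 3 each). A region 32314 bp upstream, in exons of the noncoding transcripts A330009N23Rik and AU021063, ranked at 93.9, 94.5 and 95.2 and at 91.8, 90.8 and 81.1, without overlap (limma unadjusted p = 0.0155, adjusted p = 0.165).

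By locus, the regions at an unadjusted p under 0.05 numbered 7 of 10 tested for Jun, 6 of 19 for Junb, 4 of 17 for Jund, 3 of 18 for Nr4a1, 2 of 22 for Fosb, 2 of 8 for Atf3, 2 of 6 for Fosl2, 1 of 16 for Fosl1, 1 of 8 for Egr1 and 0 of 7 for Fos. The share over all tested regions was 18.6%. Beyond the regions named by the rule, 5 distal regions were in this class outside the Jun locus, and their values are given because they complete it. A region in the coding sequence of Rtbdn, 25707 bp downstream of the Junb start, averaged 13.6 in Sham and 45.6 in UNx lists. An intergenic one 7194 bp upstream of that start averaged 6.52 and 34.6. The lower ones lay downstream of the nearest start of their gene, by 62098 bp at Fosl2 (84.2 and 72.1), 1825 bp at Jund (71.9 and 55.0) and 49129 bp at Nr4a1 (65.5 and 46.3). The smallest limma adjusted p of the 5 was 0.15.

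The 30 regions in fewer than 3 lists had mean ranks over the 6 libraries of 0.0548 to 7.07, with absence counted as 0. They include 6 of the 12 Fosl2 regions and 6 of the 24 Nr4a1 regions, and 0 of those of Jun and Egr1.

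Of the 32 regions at promoters of neighbouring genes, 30 were tested. None (0) was called in limma (0.428% of all tested promoter regions were), and the unadjusted p of 6 (20.0%, against 14.2% of promoter regions) was under 0.05, 1 higher and 5 lower after UNx. The higher one, 49953 bp upstream of Fosb, lay 523 bp from the start of Cd3eap, in an intron of Ppp1r13l. It went with mean ranks of 34.4 in Sham and 63.2 after UNx (limma adjusted p = 0.0922). The region 17 bp from the Cd3eap start stood at 57.4 in Sham and 59.25 after UNx (limma adjusted p = 0.9277). Among the lower ones was the promoter region of Hook2, 11759 bp upstream of Junb, at 94.3 and 85.5 (limma adjusted p = 0.106), next to the region that was higher. These neighbours were named after their values were seen.

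Presence was also counted. With every list cut to its 77355 strongest peaks, the 10 loci held 136, 133 and 137 peaks in Sham and 145, 141 and 143 after UNx, 135 ± 2.08 against 143 ± 2.0 (SD, n = 3 each). The groups did not overlap, and the two-sided exact permutation test gave p = 0.1, the smallest that 3 against 3 can give. Fos, with 6, 6 and 7 peaks against 8, 9 and 8, was the only locus whose groups did not overlap, while Jun (10, 12 and 11 against 9, 10 and 9) and Egr1 (10, 10 and 9 against 9, 8 and 8) had fewer on average. The difference of 7.67 peaks was 0.333 with the 20000 strongest peaks and −2.67 with lists ranked by fold enrichment, so it depends on which peaks are kept. With all deposited peaks the loci held 158, 133 and 154 against 158, 162 and 160 (exact permutation test, p = 0.2).

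**Figure D4:**
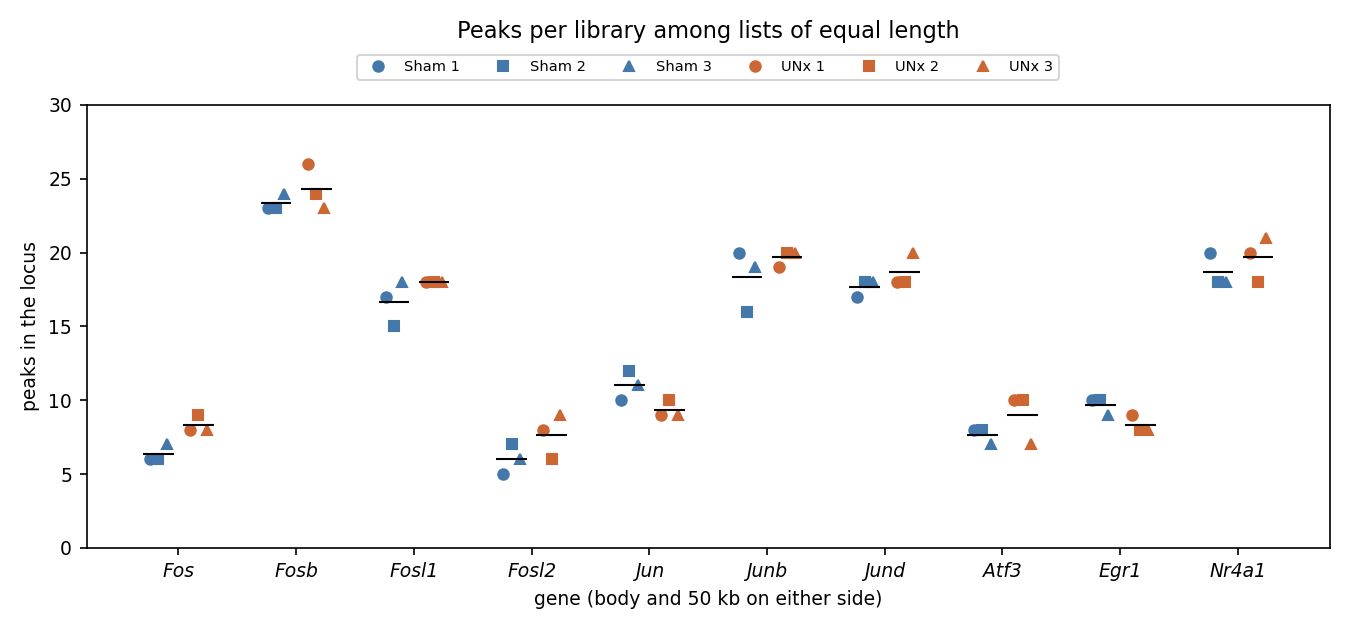
Number of ranked peaks with a summit in each gene body or within 50 kb of it, per library, from lists of equal length, with Sham in blue, UNx in orange and black lines for group means. The Fos locus holds 6 or 7 peaks in Sham and 8 or 9 after UNx, and the other loci overlap.

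Strings of the factors were counted within 100 bp of the strongest summit. An EGR string lay in 9 of the 131 tested member regions (6.87%), against 2.196% of all tested regions and 9.51% of tested promoter regions, and the Jund promoter region alone held 3 matches. The CArG box lay in 6 member regions (4.58%) against 0.844% of all, among them the promoters of Fos, Fosb and Egr1. The box lay 40 bp to the right of the Fos summit and 69 bp to the left of the Fosb summit. The AP-1 string lay in 8 (6.11% against 7.24%), the CRE-like string in 7 (5.34% against 8.81%), the NR4A site in 2 (1.53% against 3.17%) and the full CRE in 0 (0.683% of all). A match is a description of letters and not a bound site, and variants of the strings were not counted. RefSeq promoters were matched for 8 of the 10 genes (not Fosl1 and Egr1). The EGR string, present in 4.70% of all 32815 promoters over the same 250 bases, lay upstream of the RefSeq start in Fosb, Fosl2 and Nr4a1. The CRE-like string (11.9% of promoters) lay there in Jun and Jund. The RefSeq start of Fosl2 (32136472) is downstream of its GENCODE start (32135801), so its EGR string lies inside the GENCODE gene body.

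Promoters of a wider list of 62 genes around these factors gave 1 call, beside 0.428% of all tested promoter regions. Of the 62 genes, 56 had a promoter region and 53 were tested, of which 19 were higher and 34 lower after UNx, with a median difference of −1.20 points against 0.00 over all tested promoter regions. At an unadjusted p under 0.05 there were 8 (15.1%), 3 higher and 5 lower, near the 14.2% of all promoters. No ranked peak lay within 1 kb of a start of Batf, Mafg, Atf4, Egr4, Ptgs2 or Gadd45b in the lists used here.

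The called gene was Sik1, a salt-inducible kinase and a target of CREB. Its promoter (chromosome 17, 31854775 to 31856448) ranked at 90.9, 92.1 and 93.7 in Sham and at 81.3, 81.6 and 81.5 after UNx, so that it fell by 10.76 points (limma adjusted p = 0.0481, alternatives from 0.049 to 0.326). It stayed past the threshold with a −log10 q of at least 5 (limma adjusted p = 0.049) and was above it under every other alternative run and on leaving out any library. The 16 tested genes of this group, Sik1 included, are immediate early genes of varied function, of which 3 were higher and 13 lower. Plk2, a polo-like kinase, stood at 85.1 in Sham and 91.2 after UNx (limma unadjusted p = 0.0261, adjusted p = 0.204).

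Of the AP-1 and bZIP partners, 4 were higher and 7 lower. Maff, a small MAF protein, ranked at 37.0, 46.9 and 37.5 in Sham and at 66.05, 57.2 and 81.2 after UNx, without overlap (difference 27.7; limma unadjusted p = 0.00258, adjusted p = 0.0894), and Atf2, a CRE-binding partner of JUN, differed by −1.23 points. Of the EGR and NR4A relatives 5 were tested, and the receptor genes Nr4a3 and Nr4a2 had differences of opposite sign. Nr4a3 stood at 79.1, 75.6 and 63.0 and at 84.1, 88.6 and 81.9, and Nr4a2 at 77.4, 83.5 and 71.3 and at 63.5, 55.3 and 76.1 (limma adjusted p = 0.159 and 0.264). Among 13 upstream kinases and factors, Mapk3, which encodes ERK1, ranked at 82.8, 88.6 and 86.2 in Sham and at 38.6, 49.1 and 77.02 after UNx, without overlap (difference −30.95; limma adjusted p = 0.0532, alternatives from 0.0135 to 0.205). Srf, which encodes serum response factor, differed by −3.83 points (limma adjusted p = 0.308). Among 9 feedback phosphatases and regulators, 3 were higher and 6 lower, with Spred2, an inhibitor of RAS signalling, at 75.9 and 62.2 (limma adjusted p = 0.209) and Dusp2, a phosphatase of ERK, at 75.4 and 83.0 (0.376).

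**Figure D5:**
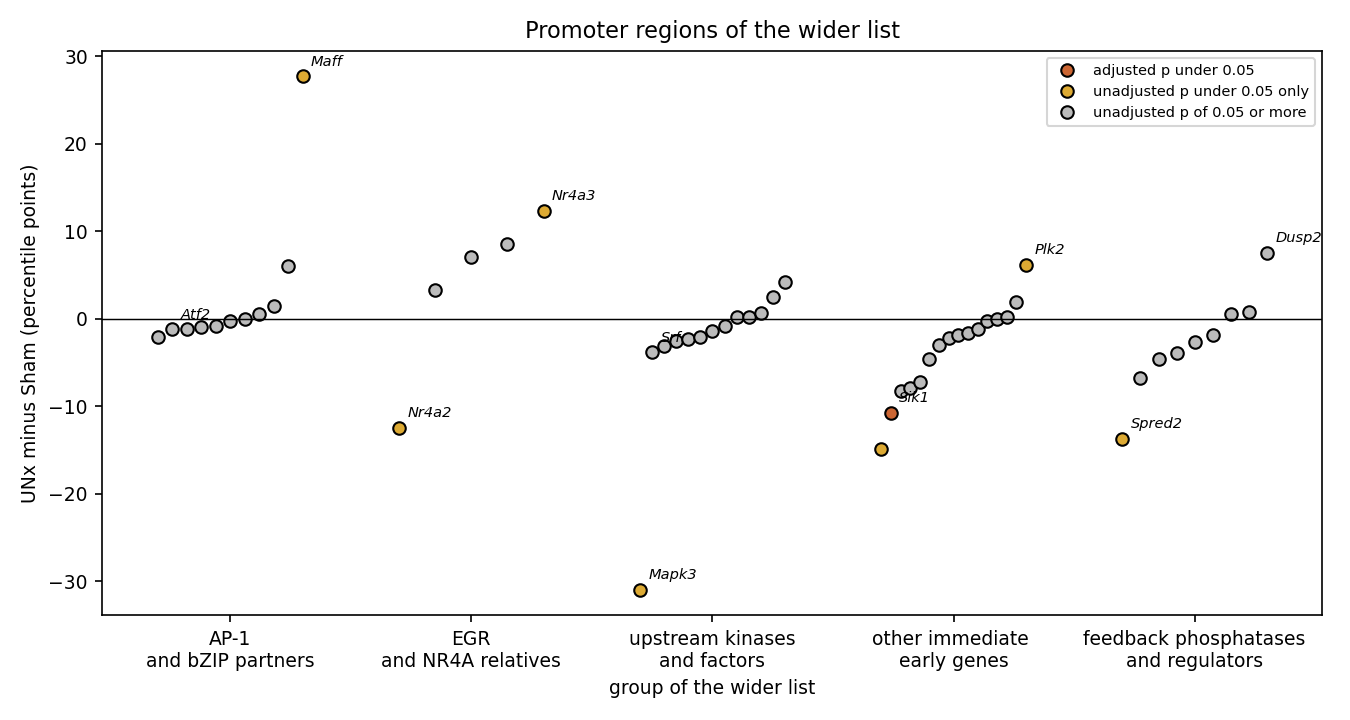
Difference in promoter percentile rank (UNx minus Sham, percentile points) of the tested genes of the wider list, by group, with colour for the unadjusted and adjusted limma p. Sik1 is the 1 gene past the adjusted threshold, and Mapk3 and Maff are the lowest and the highest at −30.95 and 27.7 points.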

How the data were processed

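ATAC-seq peak lists of 3 Sham and 3 UNx libraries were used, 1 narrowPeak list per library, not pooled. Per the submitters' processing notes the build was mm10 (GRCm38) and the tools included cutadapt 3.4, Bowtie, SAMtools, Picard and MACS2 2.2.7.1, with no settings or order given. The authors' file names call the lists filtered, and the filter is not given in the sources used here. Each deposited summit has a display score, a fold enrichment (a ratio), a −log10 p and a −log10 q. All intervals lay within GRCm38 chromosome lengths. Depth is unknown, so no counting interval is given.

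Distinct intervals were ranked by −log10 q, each list was cut to its 77355 strongest, ranks became percentiles, and intervals overlapping by at least 1 bp were merged. Regions in at least 3 of 6 lists were tested with limma 3.58.1 in R 4.3.3 (eBayes with a variance trend and robust fit, two-sided, adjusted by Benjamini-Hochberg over all 74781 regions, threshold 0.05), after a check on simulated data. Peak numbers were compared by exact permutation tests. Members, gene lists, strings and tests were chosen with earlier results of these data known. Named regions were, per member, the promoter region of highest mean rank, the strongest distal region, the distal region of smallest p, any called region and any present in 1 operation only. In the wider list they were called genes and the 2 of smallest p in each group. Other promoter regions of the members and the rest of the Jun locus were added after the values were seen. Sequences came from GRCm38 and the RefSeq promoter table, and coordinates count from 1. The distance of a region upstream or downstream of a member is from the nearest annotated start of that member. The alternatives are given in the closing section.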

Additional observations from a re-analysis of the deposited data

How the results depend on the processing

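The lists hold no counts, ranks compress differences near 100, and 3 libraries against 3 limit every test here. Over the whole genome 589 regions were called. The count was 22 with all deposited peaks, 2 with the 20000 strongest peaks, 3 with ranking by fold enrichment, 97 with a reciprocal overlap of 50%, 2 without a filter on presence, 2 with GC-corrected ranks and 1583 with normal scores, while it ranged from 30 to 379 on leaving out 1 library. The cause was not tested. The 1 called member region became 2 with a −log10 q of at least 5 and 2 with normal scores, where the region over the Jun coding sequence was added. It became 0 under the other settings just listed except the reciprocal overlap, and 0 to 1 on leaving out 1 library. With a reciprocal overlap of 50%, a peak sharing less than that with the strongest peak of its region counted as 0. The 1 call was then at the upstream Nr4a1 promoter and not near Fosl1. Its difference of 72.3 is the UNx mean rank itself, because the Sham peaks there counted as 0. The difference was 18.85 in the main setting. At an unadjusted p under 0.05 there were 7 (20000 strongest peaks) to 27 (normal scores) member regions under the alternatives, and 20 to 29 on leaving out 1 library, against 28.

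The difference of 7.67 peaks in the loci was −2.67 with ranking by fold enrichment and 6.5 to 8.67 on leaving out 1 library.

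Same-numbered libraries did not pair: their deviations from the group means correlated at 0.00819, −0.1 and −0.0496. With a block for the replicate number, 55 regions were called in the genome and 0 among the members (Fosl1 region adjusted p = 0.0703, Sik1 0.088). With that block on GC-corrected ranks both counts were 0, although 12391 regions and 22 member regions had an unadjusted p under 0.05 in limma.

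Of 49 named regions and promoters, 34 had the same sign in every setting that gave a value, and 15 changed sign at least once, all of them uncalled. With GC-corrected ranks, with or without the block, the differences were 2.63 at 39916 bp downstream of Jun, −1.07 at 1138 bp upstream of Jun, −0.0861 at 1615 bp upstream of Junb and −0.441 at 7761 bp upstream of Nr4a1. With ranking by fold enrichment they were −1.89, −6.67 and −2.06 at these Jun, Junb and Nr4a1 regions and −1.36 at the Egr1 promoter. With all deposited peaks they were 0.817 at the Fos promoter and 0.918 at 39916 bp downstream of Jun. The difference was 0.812 at the upstream Fosb promoter region with the 20000 strongest peaks. It was −17.77 at 888 bp downstream of an inner Fosb start with a reciprocal overlap of 50%, and 0.0267 at 2419 bp upstream of Fosl1 with normal scores. On leaving out 1 library the signs changed, with ranges of −2.34 to 1.07 at the Fos promoter, −2.62 to 0.839 at 12117 bp downstream of Fos, −2.48 to 1.997 at 2419 bp upstream of Fosl1, −0.242 to 28.4 at the Fosl1 promoter, −1.57 to 4.88 at 48884 bp upstream of Fosl2, −0.622 to 13.7 at 623 bp downstream of Fosl2. The other ranges were −6.09 to 8.94 at 39916 bp downstream of Jun, −4.32 to 6.39 at 1138 bp upstream of Jun, −0.384 to 1.44 at 1615 bp upstream of Junb, −0.934 to 0.326 at 18641 bp upstream of Jund, −0.114 to 0.877 at 7761 bp upstream of Nr4a1 and −2.87 to 18.3 at the downstream Nr4a1 promoter.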

Other observations

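Across the whole set of 74781 tested regions, those with an NR4A site AAAGGTCA within 100 bp of the summit had a median difference of 2.45 percentile points (UNx minus Sham), and 1432 of the 2367 regions (60.5%) were higher after UNx. The median over all tested regions was −0.01. The value was 2.57 over the 2252 NR4A regions away from promoters and 2.84 with GC-corrected ranks. Regions with the AP-1 string had a median of 0.58 (5411 regions, 52.5% higher), those with the CRE-like string 0.89 (6586 regions, 53.9%), those with the CRE 0.494 (511 regions) and those with the CArG box 0.333 (631 regions). Regions with the EGR string had a median of −0.479 (1642 regions, 43.6% higher). These are descriptions without a test. This site is shared with other nuclear receptors, and regions with the same string share base composition and position.

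Of the calls, 28 of 325 rises (8.62%) and 16 of 264 falls (6.06%) held the AP-1 string, beside 7.24% of all tested regions. For the NR4A site these were 11 (3.385%) and 7 (2.652%), beside 3.165%. The EGR string was in 1 (0.308%) and 8 (3.03%), beside 2.196%. The CRE-like string was in 37 (11.38%) and 19 (7.197%), beside 8.807%, and the CRE in 2 and 2. The CArG box was in 5 (1.538%) and 4 (1.515%), beside 0.844%. These shares were not tested.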
